A study of Mus musculus with 30 samples.

Results

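Bulk RNA-seq libraries of CD4 single-positive (CD4 SP) thymocytes were compared by genotype, 3 against 3: CKO 14, CKO 17 and CKO 23 against WT 15, WT 18 and WT 24. They are 6 of the 30 libraries of the series and were chosen by population and genotype label alone. All 11839 expressed genes, of 21983 gene symbols in the table, entered the comparison. WT mice are labelled wild type, CKO mice CD4-Cre+ PRMT5fl/fl, and every mouse is of the C57BL/6 strain; the numbers name animals, so each library is from another mouse. Age and treatment are not in the labels. No group carries CD4-Cre without the floxed allele, so what Cre does by itself and what the loss of Prmt5 does cannot be told apart. The cells were sorted by surface staining, and the same 6 mice also gave libraries of double-positive (DP) thymocytes.

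Prmt5 encodes an enzyme that, with its cofactor Wdr77, places a methyl group on each of the outer nitrogens of an arginine in histones, in the Sm proteins of the spliceosome and in other substrates. CD4-Cre begins to act in thymocytes around the DP stage, when cells carry both CD4 and CD8 and rearrange the T cell receptor alpha chain with the recombinases Rag1 and Rag2. A DP cell whose receptor binds self-peptide weakly is kept by positive selection, shuts off Rag1, Rag2, Dntt and Ptcra, loses one co-receptor, and as a CD4 SP cell gains Ccr7, Klf2 and S1pr1, which guide it into the medulla and out of the thymus. The comparison asks which transcripts differ in the cells that complete this step in CKO mice.

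Each library held between 11865646 and 22881226 counts. Levels are given below as CPM (counts scaled to library size) after TMM, a method that removes differences in RNA composition, and a single count was worth 0.0437 to 0.0843 CPM. CKO 14 had the most counts but the fewest genes with any count, at 13602, against 14243 to 14532 in the other libraries. By Ddx3y, WT 18 and CKO 17 were from male mice at 166 and 213 CPM, and the other 4 stood at 8.98 CPM or less. Some markers of other cells were low: Foxn1, Adgre1 and Clec9a stayed under 1 CPM in every library. No neutrophil or erythroid marker passed the filter on low counts. Other markers reached 5 CPM in at least 3 libraries, among them Epcam, Pecam1, Cd68, Cst3, Ctss, Lyz2, Mpeg1, Cd74 and H2-Aa. The summed thymic epithelium and stroma markers (11 genes) were 182.1 to 197.5 CPM in WT and 197.3 to 250.2 CPM in CKO. The B cell markers (8 genes) were 8.57 to 15.6 CPM in WT and 7.13 to 25.6 CPM in CKO, highest in CKO 14. The summed macrophage and myeloid markers (14 genes) were 98.9 to 143 CPM in WT and 147 to 208 CPM in CKO, and the dendritic cell markers (10 genes) 78.0 to 150 CPM in WT and 96.5 to 217 CPM in CKO. All 3 CKO libraries thus lay above all 3 WT libraries in the summed myeloid markers, and their part in any result below was not tested. Cd4 itself did not separate the genotypes, at 1036, 1007 and 1273 CPM in WT 15, WT 18 and WT 24 and 1695, 1124 and 1068 CPM in CKO 14, CKO 17 and CKO 23.

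Before any genotype effect, the libraries differed in how much DP-stage RNA they held. Rag1, the recombinase that DP cells express and CD4 SP cells shut off, stood at 1103, 712.5 and 1767 CPM in WT 15, WT 18 and WT 24 and at 2013, 30.7 and 953 CPM in CKO 14, CKO 17 and CKO 23. Dntt, the polymerase that adds bases at receptor joints, stood at 542, 507 and 862 CPM in the WT libraries and at 1891, 62.2 and 479 CPM in the same CKO order. Cd8a, the co-receptor that CD4 SP cells lose, stood at 1220, 1105 and 1540 CPM in WT and at 2328, 44.0 and 954 CPM in CKO. For all 3 genes CKO 14 was the highest library and CKO 17 the lowest by far, while CKO 23 lay within or slightly below the WT range.

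Set against the DP library of the same animal, Rag1 reached 34.3%, 22.9% and 44.2% of its DP level in WT 15, WT 18 and WT 24. In CKO 14, CKO 17 and CKO 23 it reached 53.6%, 1.10% and 24.6%. Dntt reached 33.8% to 49.9% in WT, 113.7% in CKO 14, 4.52% in CKO 17 and 26.2% in CKO 23. Cd8a reached 42.6% to 56.6% in WT, 82.7% in CKO 14, 1.68% in CKO 17 and 34.9% in CKO 23. DP-stage RNA was therefore plentiful in all WT libraries too, and the sole library nearly without it was a CKO. Over the 17 DP-stage genes measured, the median was 48.3%, 40.9% and 56.6% in the WT libraries, 59.9% in CKO 14, 7.60% in CKO 17 and 34.9% in CKO 23. CKO 17 was below all other libraries for 14 of the 17 genes. In bulk RNA, fewer cells of a type and less RNA per cell cannot be told apart, so the values do not say whether DP cells or RNA left from the DP stage differed.

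**Figure D1:**
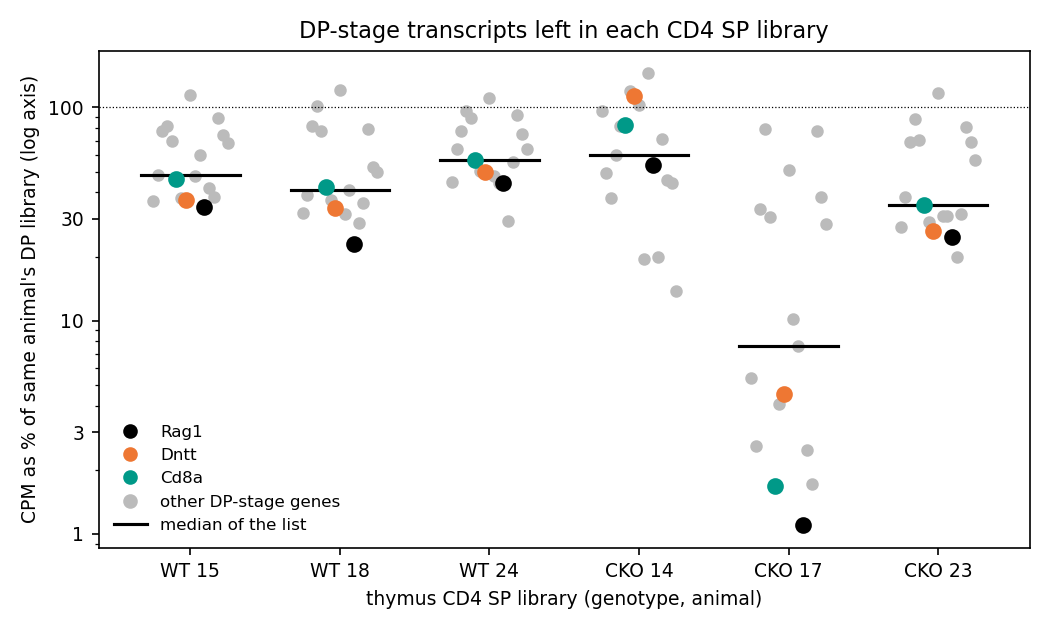
Level of 17 DP-stage genes in each CD4 SP library (x axis, genotype and animal) as a percentage of the same animal's DP library (y axis, log scale); each point is a gene, the bar is the median, and the dotted line marks 100%. CKO 17 has a median of 7.60% while the other 5 libraries lie between 34.9% and 59.9%.

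The high DP-stage content of CKO 14 was uneven. Its level relative to its own DP library was 144.6% for Ptcra, the surrogate alpha chain, and 120% for Cd8b1, but 19.9% for Rag2, 19.5% for Mns1 and 13.8% for Themis, a signalling protein of positive selection. Among the 17 genes, those with the shorter transcripts (9 genes) stood a median log2 of 0.95 above the other 5 libraries in CKO 14, and those with the longer ones (8 genes) stood at -0.66. Rag1 and Dntt gave CKO 14 the highest DP-stage content, whereas Rag2 and Themis gave it the lowest or next to lowest. Rag1, at 6608 bases against a list median of 3890, is among the longer transcripts and so went against this lean.

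The same lean ran through the whole of CKO 14. For log2(CPM + 1) against the median of the other 5 libraries, the genes were split into 5 equal groups by transcript length or by GC content. The group with the shortest transcripts had a median of 0.34 and the one with the longest -0.59. By GC content, the lowest group stood at -1.27 and the highest at 0.35. Genes in both the longest and the lowest-GC group (698 genes) stood at -1.80, and genes in both the shortest and the highest-GC group (779 genes) at 0.58. CKO 14 lay more than 1 log2 unit from that median for 26.5% of genes (769 above, 2366 below), CKO 17 for 7.69%, and the other 4 libraries for 0.287% to 0.372%. WT 15 and CKO 23 leaned the opposite way to a smaller extent, at -0.14 and -0.07 in the group with the shortest transcripts and 0.12 and 0.08 in the one with the longest. Length and GC were also fitted to each library's deviation from the mean of all 6 libraries. Together they took up 37.1% of its variance in CKO 14, 26.1% in WT 15 and 25.7% in CKO 23. In the other 3 they took up 2.01% to 7.22%. That mean includes CKO 14, so the lean of CKO 14 enters the values of the other libraries with the opposite sign. CKO 17 leaned little by length or GC, at -0.02 and 0.07 in the groups with the shortest and longest transcripts.

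**Figure D2:**
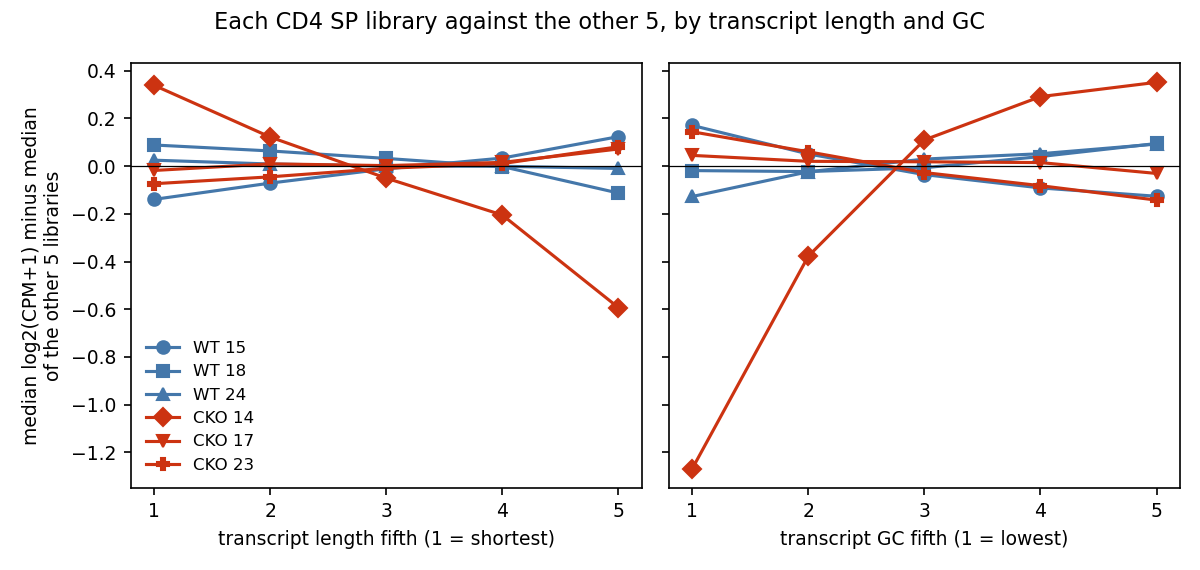
Median difference of each CD4 SP library from the median of the other 5, in log2(CPM + 1) (y axis), for 5 equal groups of genes by transcript length (left) and GC content (right); lines are libraries. CKO 14 runs from 0.34 to -0.59 by length and from -1.27 to 0.35 by GC, while the other 5 stay within 0.171 of 0, with WT 15 and CKO 23 leaning the opposite way.

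The genes furthest out in these libraries showed what each held. In CKO 14 the lowest were Eps8l1 (1.71 CPM against a median of 60.2 in the other 5), Kdm7a, Atrx, Pik3c2a, Arl5b and Paxbp1. Atrx, a chromatin remodeler with a long transcript, stood at 40.2 CPM there and at 433 to 703 CPM elsewhere. The highest in CKO 14 were Cmc2, Cdc20, Cd8b1, Dntt, H2afx and Hist1h1c. In CKO 17 the lowest included Rag1, Smoc1, Cacna1e, Cd8a and Slc7a11, and the highest, besides the Y-linked Ddx3y, Eif2s3y and Kdm5d, were Foxp3, St8sia6 and Ccr8. Ccr8, a chemokine receptor of mature SP and regulatory T cells, stood at 136 CPM in CKO 17 and at 35.3 to 89.0 CPM in the other 5.

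The targeted gene checked the labels. Prmt5 (chromosome 14, 54507182 to 54517470, GRCm38) stood at 56.9, 64.1 and 68.2 CPM in WT 15, WT 18 and WT 24 and at 41.8, 26.2 and 24.95 CPM in CKO 14, CKO 17 and CKO 23. Every CKO library was below every WT library, with CKO 14 the highest of the CKO. The log2 fold change, CKO over WT, was -0.99 ± 0.27 (SE, n = 3 against 3), and its adjusted p was 0.958 by edgeR's quasi-likelihood test with Benjamini-Hochberg adjustment. In the DP libraries of the same mice it was -1.09 ± 0.09 with an adjusted p of 0.000845 by the same test. The difference between both populations was 0.06 ± 0.26 on the log2 scale (adjusted p = 0.985, edgeR interaction term). Counts per gene do not separate the floxed exons, so RNA from a recombined allele would be included.

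Across all genes, edgeR called 0.0% of 11839 genes higher and 0.0% lower at an adjusted p under 0.05. At an unadjusted p under 0.05 there were 306 genes (2.58%), fewer than 5% of those tested. DESeq2 called 1 gene, Gzmb, lower (0.00845% of 11836) and none higher, with 412 genes at an unadjusted p under 0.05. Without CKO 14, 1417 genes had an unadjusted p under 0.05 and 0 were called. The biological coefficient of variation, the spread between replicates of a genotype, was 0.365 in CD4 SP and 0.103 in DP; without CKO 14 it was 0.19, and without CKO 14 and CKO 17 it was 0.146. The values below are therefore given as levels, and a side of WT named for a gene is a description of 6 libraries. All 3 CKO libraries lay above all 3 WT libraries for 560 genes (4.73%) and below them for 637 (5.38%), together 10.1% of the genes tested, and the same count in DP was 12.2%.

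Low transcripts of cytotoxic and natural killer (NK) receptor genes, which NK cells, natural killer T cells and other effector lymphocytes express, stood furthest below WT. The 5 lowest fitted log2 fold changes among the 11839 genes were those of Klra9, Gzmb, Klrb1c, Ifng and Klrk1, all of this kind. All 5 passed the filter on low counts through their WT libraries, with few or no counts in CKO. Their ranks follow in part from that and are a description only. Gzmb, the serine protease granzyme B of killer cells, stood at 4.54, 6.06 and 3.93 CPM in WT 15, WT 18 and WT 24 and at 0.0461, 0.0557 and 0.25 CPM in CKO 14, CKO 17 and CKO 23. In reads, that is 70, 111 and 58 counts in WT and 1, 1 and 3 counts in CKO. No CKO library came near a WT library, the scaled WT to CKO ratio over pooled counts being 50.9 (95% exact interval 21.5 to 158, counting error only). The fitted log2 fold change was -5.45 ± 0.61, with an unadjusted p of 4.55e-05 and an adjusted p of 0.538 by edgeR's quasi-likelihood test. DESeq2 gave -5.57 and an adjusted p of 5.72e-09. In DP, Gzmb was at 0.216 CPM or less in WT and at 0 counts in all 3 CKO libraries, and it was not tested within DP. Its CKO effect in CD4 SP minus that in DP was -1.20 ± 1.92 on the log2 scale (adjusted p = 0.983, edgeR interaction term).

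Promoters of the 3 genes with the smallest p in the cytotoxic and innate-like lists are printed here because these genes stood together, all below WT in every CKO library. They come from the RefSeq annotation of GRCm38.p6 and run from 250 bases before to 50 after the annotated start. Capitals mark TGTGGT or its reverse complement ACCACA, a core motif of Runx factors, which act in cytotoxic and CD8 lineage genes; the motif was chosen after the sequences had been read.
Gzmb (chr14:56262285-56262584, minus strand): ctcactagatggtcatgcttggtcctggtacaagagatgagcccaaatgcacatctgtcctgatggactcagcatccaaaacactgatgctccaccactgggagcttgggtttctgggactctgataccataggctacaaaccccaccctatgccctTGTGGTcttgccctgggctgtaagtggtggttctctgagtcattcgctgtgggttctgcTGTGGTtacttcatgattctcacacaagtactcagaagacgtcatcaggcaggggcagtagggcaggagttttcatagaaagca
Klrb1c (chr6:128788592-128788891, minus strand): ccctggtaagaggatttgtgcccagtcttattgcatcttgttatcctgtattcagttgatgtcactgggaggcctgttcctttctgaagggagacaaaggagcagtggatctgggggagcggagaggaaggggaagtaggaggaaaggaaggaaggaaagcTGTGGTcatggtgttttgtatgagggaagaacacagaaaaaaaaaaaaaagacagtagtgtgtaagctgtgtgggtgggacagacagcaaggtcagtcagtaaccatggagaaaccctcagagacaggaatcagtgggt
Nkg7 (chr7:43436888-43437187, plus strand): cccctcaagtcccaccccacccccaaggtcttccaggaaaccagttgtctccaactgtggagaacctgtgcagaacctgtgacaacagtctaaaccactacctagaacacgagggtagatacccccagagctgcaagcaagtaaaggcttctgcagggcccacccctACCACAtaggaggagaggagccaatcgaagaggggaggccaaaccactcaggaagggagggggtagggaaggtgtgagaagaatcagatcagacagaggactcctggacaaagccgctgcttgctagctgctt
Searched on both strands, these 6 letters occurred in 16.8% of the 32851 promoters of the table and in 15.1% of the 9301 tested genes with an entry. Of the 9 genes of both lists whose CKO libraries lay below every WT library (Gzmb, Nkg7, Xcl1, Ifng, Klrk1, Klrd1, Cxcr3, Klrb1c and Zbtb16), 7 had an entry, and 6 of them held the motif at least once. Those 6 include the 3 promoters printed above, which had been read before the motif was chosen. The genes were also picked from these data, so the count cannot test for an excess of the motif. Klra9 is in neither list and was not searched. A match of letters is a description and not a bound site.

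Klrb1c, an NK receptor also known as NK1.1, had 37, 21 and 29 counts in WT 15, WT 18 and WT 24 and 0, 4 and 0 counts in CKO 14, CKO 17 and CKO 23. That is 2.40, 1.15 and 1.97 CPM against 0, 0.223 and 0 CPM. The WT to CKO ratio over pooled counts was 23.2 (95% exact interval 8.73 to 87, counting error only). Nkg7, a protein of cytotoxic granules, stood at 5.19, 4.69 and 4.001 CPM in WT and at 2.44, 1.95 and 1.83 CPM in CKO. Its groups did not overlap either, and its log2 fold change was -1.12 ± 0.31 (adjusted p = 0.958, edgeR). Ifng had 17, 23 and 13 counts in WT and 0, 0 and 5 in CKO, and Klrk1, the NKG2D receptor, 32, 21 and 10 in WT and 0, 1 and 6 in CKO. Xcl1, a chemokine of activated lymphocytes, stood at 1.75, 2.07 and 1.15 CPM in WT and at 0.738, 0.725 and 0.499 CPM in CKO. All of these are low transcripts, under 7 CPM in every library.

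Other genes of the killer cell lectin-like receptor family, whose symbols begin with Klr, were looked at after the values of Klrb1c and Klrk1 had been seen. The 22 symbols besides Klra9, Klrb1c, Klrd1 and Klrk1 summed to 115, 78 and 78 counts in WT 15, WT 18 and WT 24 and to 41, 66 and 34 counts in CKO 14, CKO 17 and CKO 23. On the CPM scale that is 7.47, 4.25 and 5.29 in WT and 1.89, 3.68 and 2.83 in CKO, so the groups did not overlap, CKO 17 being the nearest to WT. Klra9, an inhibitory Ly49 receptor, had 17, 11 and 10 counts in WT and 0 in every CKO library. With 3 counts over the CKO group taken as the floor, its WT to CKO ratio over pooled counts came to 13.5. That value leaves out the counting error of the WT libraries and is not a lower bound. Klrc2, an activating partner of CD94, had 31, 8 and 5 counts in WT and 0 in all CKO libraries. Klrd1, which encodes CD94, had 22, 27 and 17 counts in WT and 3, 11 and 9 in CKO. Klrg1, a receptor of late effector cells, went the other way, with 3, 5 and 8 counts in WT and 29, 15 and 5 in CKO, and Klrg2 overlapped. The Klra genes are near-identical copies, so their counts may be split between members; summed over 11 symbols, Klra9 included, they gave 49, 40 and 30 counts in WT and 5, 16 and 11 in CKO.

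Of 19 tested cytotoxic and effector genes, 7 lay below WT in all CKO libraries (background 5.38%) and 0 above. Gzmb, Ifng and Klrk1 among the 7 passed the filter on low counts through their WT libraries. The count follows in part from that and is a description only. The list's median log2 fold change was -0.55, against 0.02 over all genes tested. It was -0.53 without CKO 14, -0.47 without CKO 17 and -0.76 without both. It turned to 0.23 with a filter of at least 5 CPM in 3 libraries, which left 4 of its genes (Ctsw, Fasl, Gzma and Prdm1), so the negative median rests on low transcripts, several of which passed the filter through their WT levels. The list was not lower throughout. Gzma, another granzyme, had 177, 188 and 243 counts in WT and 754, 55 and 179 counts in CKO. Prf1, the pore protein perforin, had 44, 59 and 74 counts in WT. In CKO 14, CKO 17 and CKO 23 it had 146, 80 and 48 counts, so the genotypes overlapped. Ctsw and Ccl5 overlapped between the genotypes as well. Among 7 tested innate-like genes, Klrb1c and Zbtb16 lay below WT in all CKO libraries (background 5.38%), and Klrb1c passed the filter through its WT libraries. Zbtb16, the PLZF factor of natural killer T cells, stood at 3.44, 4.09 and 3.26 CPM in WT and at 0.553, 3.07 and 2.33 CPM in CKO. Several gamma delta receptor genes of that list are not analysed here.

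Gzmb lies on the same chromosome as Prmt5, 1.75 Mb away (56258836 to 56262334). Of 97 genes tested within 5 Mb of Prmt5, without Prmt5 but with Gzmb, 5 stood above WT in all CKO libraries (background 4.73%). Below WT in all CKO libraries were 6 (background 5.38%), Gzmb among them. Both shares are near those of all genes, and the median log2 fold change of the 97 was 0.11. No other gene of this stretch came close to Gzmb.

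**Figure D3:**
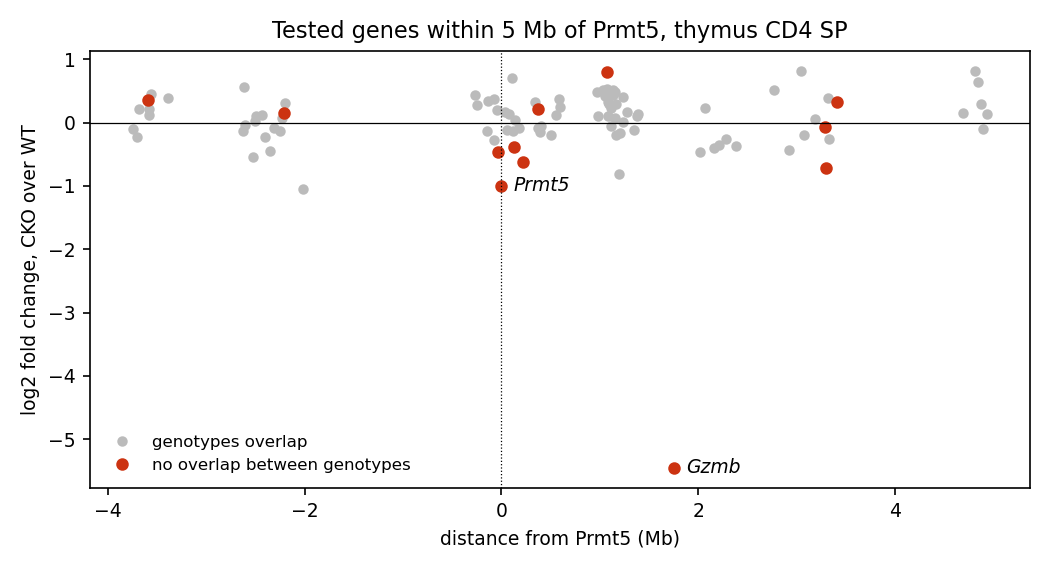
Fitted log2 fold change, CKO over WT, in CD4 SP (y axis) against distance from Prmt5 in Mb (x axis) for tested genes within 5 Mb, each point a gene; filled red points are genes whose genotypes do not overlap. Gzmb lies at -5.45, and the other genes lie between about -1 and 1.

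Some genes of SP maturation and egress stood above WT in all CKO libraries, while the list as a whole was highest in CKO 17 and within the WT range in CKO 14. Its mean log2 CPM was 7.07, 7.29 and 6.82 in WT 15, WT 18 and WT 24 and 6.95, 8.04 and 7.36 in CKO 14, CKO 17 and CKO 23. Ccr7, the receptor that brings SP cells to the medulla, stood at 399, 552 and 300.1 CPM in WT 15, WT 18 and WT 24 and at 465, 990 and 666 CPM in CKO 14, CKO 17 and CKO 23. Klf2, the factor that turns on egress genes, stood at 159, 221 and 196 CPM in WT and at 407, 352 and 239 CPM in CKO. Cd52, a surface glycoprotein of mature lymphocytes, stood at 129, 142 and 142 CPM in WT and at 304, 296 and 174 CPM in CKO. Ccr7 overlapped between the genotypes through CKO 14, whereas Klf2 and Cd52 did not overlap and were highest in CKO 14. The log2 fold changes were 0.78 ± 0.34, 0.82 ± 0.27 and 0.93 ± 0.26, each with an adjusted p of 0.958 by edgeR. With CKO 23 alone against WT they were 0.69 for Ccr7, 0.33 for Klf2 and 0.36 for Cd52.

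Of 25 tested mature SP genes, 5 (among them Cd52, Klf2, Itgb7 and Gimap7) lay above WT in all CKO libraries (background 4.73%) and 0 below. Estimates were positive for 23 of 25, with a median log2 fold change of 0.55. Itgb7, an integrin chain used in homing, stood at 162, 181 and 159 CPM in WT and at 247, 399 and 208 CPM in CKO. CKO 17 was above all other libraries for 21 of the 25 genes, CKO 14 for 4 and CKO 23 for 0, and CKO 14 was below all others for 8. The median was 0.68 without CKO 14, 0.22 without CKO 17, 0.33 with CKO 23 alone against WT, and 0.16 with DP-stage content as a covariate. The part of DP-stage content in the difference was not tested, since CKO 14 and CKO 17 differ from the others in more than that content.

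Lineage and receptor genes had smaller list medians. Zbtb7b, the ThPOK factor that fixes CD4 fate, stood at 66.3, 61.2 and 80.2 CPM in WT and at 165, 158 and 80.2 CPM in CKO, where CKO 23 matched WT 24. Myb, a factor of earlier thymocytes, stood at 1217, 1025 and 1135 CPM in WT and at 393, 347 and 1076 CPM in CKO, so that CKO 14 and CKO 17 were low and CKO 23 was not. Gata3, needed for CD4 fate, was almost level at 173 to 176 CPM in WT and 180 to 189 CPM in CKO. Over 11 CD4 lineage genes the median log2 fold change was 0.24, and 1 of them, Gata3, lay above WT in all CKO libraries (background 4.73%). That median was 0.05 without CKO 14, 0.14 without CKO 17 and 0.10 with CKO 23 alone against WT. Among 25 genes of T cell receptor signalling the median was 0.23, and 5 (Cd2, Cd3e, Cd3g, Prkcq and Nfatc1) lay above WT in all CKO libraries (background 4.73%). Their list median was 0.12 without CKO 14, 0.17 without CKO 17 and 0.02 with CKO 23 alone, so it rests largely on CKO 14 and CKO 17. Cd2, an adhesion receptor of T cells, stood at 225, 266 and 231 CPM in WT and at 469, 506 and 294 CPM in CKO. Of 16 genes induced by positive selection, 15 had positive estimates, with a median of 0.22, and 2 (Egr1 and Egr3) lay above WT in all CKO libraries against the same background.

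Of 14 genes of regulatory T cells, a lineage that also arises among CD4 SP thymocytes, 6 lay above WT in all CKO libraries (background 4.73%) and 0 below. The mean log2 CPM of the list was 4.74, 4.92 and 4.59 in WT 15, WT 18 and WT 24 and 4.67, 5.72 and 5.11 in CKO 14, CKO 17 and CKO 23, so CKO 14 lay within the WT range. Foxp3, their defining factor, stood at 12.1, 13.96 and 10.2 CPM in WT 15, WT 18 and WT 24 and at 16.9, 54.7 and 18.7 CPM in CKO 14, CKO 17 and CKO 23. Tnfrsf9, the co-stimulatory receptor 4-1BB, stood at 20.9, 23.3 and 22.5 CPM in WT and at 47.7, 66.3 and 30.2 CPM in CKO. Neither gene overlapped between the genotypes, and CKO 17 was the highest library for both. The log2 fold changes were 1.33 ± 0.47 for Foxp3 and 1.13 ± 0.30 for Tnfrsf9, each with an adjusted p of 0.958 by edgeR. Izumo1r, Tnfrsf18, Gpr83 and Il2ra also did not overlap, and the list median was 0.52. CKO 17 was above all other libraries for 11 of the 14, and CKO 14 below all others for 4. The median was 0.74 without CKO 14, 0.20 without CKO 17, 0.42 with CKO 23 alone and 0.17 with DP-stage content as a covariate.

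The 10 genes above WT with the smallest p, among those with at least 5 CPM and no overlap, were Dglucy, Lad1, Tnfrsf9, Igfbp4, Trpm1, Cd52, Ephx1, Ccl22, Cap2 and Pepd. Igfbp4, a binding protein of insulin-like growth factors, stood at 162, 206 and 155 CPM in WT and at 321, 535 and 259 CPM in CKO, a log2 fold change of 1.11 ± 0.30. Ephx1, the microsomal epoxide hydrolase, stood at 63.5, 66.98 and 57.2 CPM in WT and at 119, 150 and 81.0 CPM in CKO. Ccl22, a ligand of the chemokine receptor CCR4, stood at 1.10, 2.40 and 0.814 CPM in WT and at 7.19, 3.73 and 4.08 CPM in CKO, and its log2 fold change of 1.82 ± 0.52 was the largest of the 10. The 10 genes below WT by the same rule were Slco4a1, Nusap1, Ttk, Arhgap33, Prmt5, Dnah14, Syt14, Bub1, Nav2 and Kifc2. Slco4a1, an organic anion transporter, was even within groups, at 31.5, 30.9 and 31.9 CPM in WT and 15.1, 16.8 and 20.5 CPM in CKO, a log2 fold change of -0.83 ± 0.20. The adjusted p of all 20 genes was 0.958 by edgeR. With offsets for transcript length and GC content, Dnah14 moved from -0.97 to -0.43, Nusap1 from -1.10 to -0.69 and Bub1 from -1.12 to -0.67. Syt14 moved from -1.55 to -1.05 and Ttk from -1.20 to -0.89. Arhgap33, Nav2 and Kifc2 became smaller by less, Slco4a1 stayed at -0.83 and Prmt5 was -1.08.

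**Figure D4:**
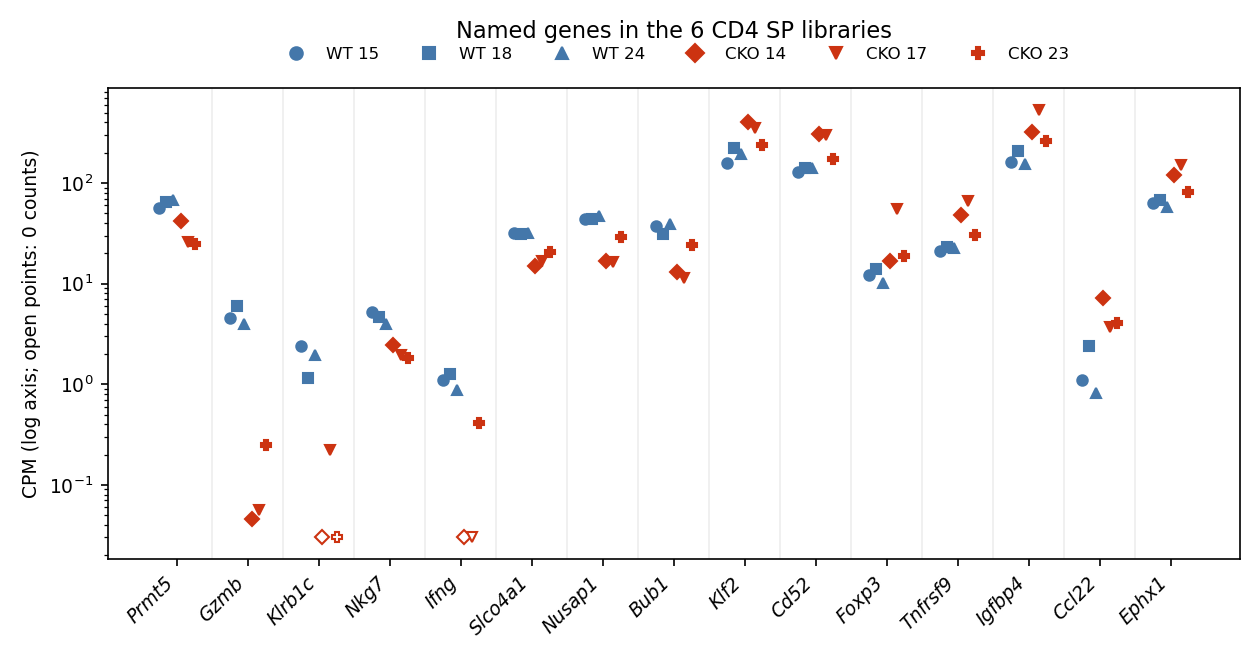
CPM (y axis, log scale) of 15 named genes in the 6 CD4 SP libraries; blue points are WT, red points are CKO, each shape is an animal, and open points stand for 0 counts drawn at the bottom. The genes drawn were picked among those without overlap, so that all CKO points lie on one side of all WT points follows from the choice. Named genes that overlap, such as Rag1, Dntt, Cd8a, Cd4 and Ccr7, are not drawn. Of those drawn, Gzmb and Klrb1c lie the furthest apart.

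Mitotic genes showed how far the libraries that stand apart shape a list. Nusap1, a spindle protein, stood at 43.7, 44.2 and 46.5 CPM in WT 15, WT 18 and WT 24 and at 16.6, 16.3 and 28.9 CPM in CKO 14, CKO 17 and CKO 23. Bub1, a kinase of the spindle checkpoint, stood at 37.7, 30.8 and 38.7 CPM in WT and at 13.1, 11.4 and 24.1 CPM in CKO. Mki67, a marker of cycling cells, stood at 498, 321 and 470 CPM in WT and at 103, 159 and 317 CPM in CKO. These genes lay below WT in all CKO libraries, Mki67 in CKO 23 by a narrow margin, with log2 fold changes of -1.10 ± 0.27, -1.12 ± 0.32 and -1.15 ± 0.42 and an adjusted p of 0.958 each by edgeR. In DP they were -0.35, -0.42 and -0.40.

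Of 39 cell cycle genes, 11 lay below WT in all CKO libraries (background 5.38%) and 0 above, yet the list's median log2 fold change was -0.07. CKO 17 was below all other libraries for 34 of the 39 genes, and CKO 14 was above all others for 26 and below all others for 5. Cdc20, a short transcript, stood at 249.9 CPM in CKO 14 and at 22.0 to 95.1 CPM elsewhere, while Cenpf and Cenpe, which are long, had their lowest levels there, both at 9.13 CPM. The 11 genes without overlap are thus those in which CKO 14 was also low. The median was -0.94 without CKO 14, 0.38 without CKO 17, -0.51 with CKO 23 alone and 0.44 with DP-stage content as a covariate, so its sign turned with the libraries used. The median of the list in DP was -0.35.

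Interferon response genes turned in the same way. Gbp2, a guanylate-binding protein, stood at 33.3, 32.95 and 29.2 CPM in WT and at 56.5, 62.0 and 40.3 CPM in CKO. Isg20, an exonuclease, stood at 13.8, 15.8 and 14.9 CPM in WT and at 21.2, 31.8 and 19.9 CPM in CKO. These genes did not overlap between the genotypes and were among the 3 of 34 tested genes above WT in all CKO libraries (background 4.73%); 33 of 34 estimates were positive, with a median of 0.49. CKO 17 was above all other libraries for 33 of the 34 genes, and CKO 14 below all others for 23. The median was -0.25 without CKO 17, 0.14 with CKO 23 alone and -0.33 with DP-stage content as a covariate.

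**Figure D5:**
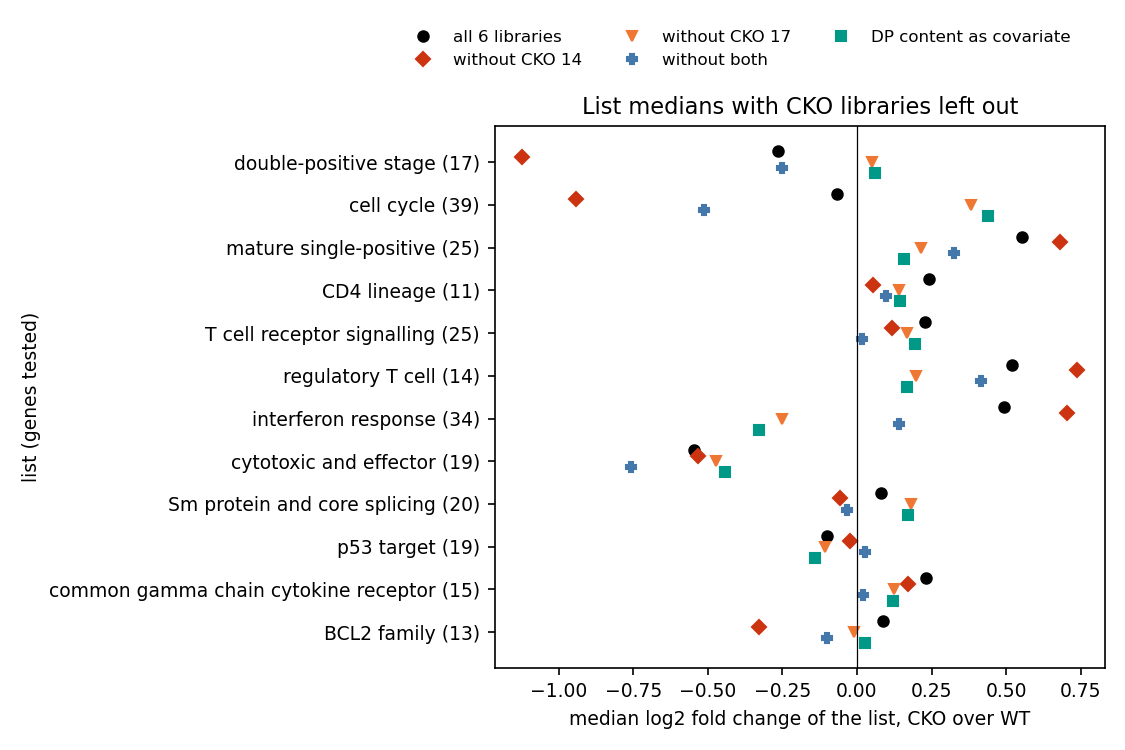
Median log2 fold change, CKO over WT (x axis), of 12 gene lists (y axis, number of genes tested in parentheses) with all 6 libraries, without CKO 14, without CKO 17, without both, and with DP-stage content as a covariate. Over the 5 settings drawn, the cytotoxic and effector list lies between -0.76 and -0.44, and the cell cycle and interferon lists lie on both sides of 0.

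Methyltransferase, splicing, p53 and cytokine receptor genes followed. The background for genes without overlap is 4.73% above and 5.38% below WT. Of 11 methylosome and arginine methyltransferase genes, Prmt5 lay below and Prmt3 above WT in all CKO libraries, with a median of 0.27 that was -0.03 without CKO 14. Prmt3, a methyltransferase of ribosomal proteins, stood at 29.5, 23.9 and 29.2 CPM in WT and at 36.1, 43.1 and 33.7 CPM in CKO. Of 20 Sm and core splicing genes, 1 (Lsm10) lay above WT in all CKO libraries, and the median was 0.08. Among 19 p53 targets the median was -0.10, and 2, Cdkn1a and Fas, a cell cycle inhibitor and a death receptor, lay below WT in all CKO libraries. Cdkn1a stood at 10.7, 16.2 and 12.1 CPM in WT and at 10.1, 6.24 and 8.65 CPM in CKO. Of 15 genes of common gamma chain cytokine receptors, 1 (Il9r) lay below WT in all CKO libraries, and the median was 0.23.

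In DP, edgeR called 2 genes higher (0.0172%) and 1, Prmt5, lower (0.0086%). The 2 higher genes did not carry over in an even way. Bmf, a pro-apoptotic BCL2 family member, was called higher in DP CKO, with a log2 fold change of 0.60 ± 0.07 (adjusted p = 0.00823). In CD4 SP it stood at 123, 147 and 163 CPM in WT and at 317, 14.3 and 129 CPM in CKO, high in CKO 14, low in CKO 17 and within the WT range in CKO 23, in the order of their DP-stage content. Mbnl1, a splicing regulator, stood at 723.9, 531 and 482 CPM in WT and at 188, 1203 and 1077 CPM in CKO, above WT in CKO 17 and CKO 23 and far below it in CKO 14. Over 13 BCL2 family genes, 0 were free of overlap (background 10.1% over both directions), and the median was 0.09. It turned to -0.33 without CKO 14, -0.01 without CKO 17 and -0.10 with CKO 23 alone against WT. Bcl2l11, which encodes BIM, stood at 663, 709 and 600.2 CPM in WT and at 333, 386 and 627 CPM in CKO.

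Whether the genotype effect differed between CD4 SP and DP was tested over the 12 libraries of both populations. EdgeR's interaction term called 0.0% of 12216 genes in either direction, with 263 genes at an unadjusted p under 0.05, and DESeq2 also called 0 genes, with 364 at an unadjusted p under 0.05. The genes with the smallest p were Pepd, Ppa1, Ttc27, Tyro3 and Gatb, with a higher CKO effect in CD4 SP, and Slco4a1, Mettl6, Bbof1, Fam71b and Bivm, with a lower one. Slco4a1 had a log2 fold change of -0.83 in CD4 SP and 0.19 in DP, a difference of -1.04 ± 0.29 (unadjusted p = 0.00447, adjusted p = 0.983, edgeR). Pepd, a peptidase that splits dipeptides ending in proline, had 0.84 in CD4 SP and -0.14 in DP, a difference of 0.96 ± 0.28 (unadjusted p = 0.0055, adjusted p = 0.983, edgeR). Klf2 had 0.82 in CD4 SP and -0.22 in DP, a difference of 1.02 ± 0.38 with an unadjusted p of 0.0205 by edgeR.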

How the data were processed

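The deposited values are raw read counts per gene, which the authors made with HISAT2 and HTSeq on GRCm38, per the submitters' processing notes; per the labels' protocols, RNA was poly(A)-selected and the kit kept strand. Not given in the sources used here were versions, annotation and the strand setting, so reads of a gene and its antisense partner cannot be told apart with certainty. Titles gave each library's group and animal, and nothing says how the mice were matched. CKO was compared with WT on the 6 CD4 SP libraries with edgeR 4.0.16 in R 4.3.3 (filterByExpr, TMM, quasi-likelihood test, Benjamini-Hochberg adjustment at 0.05), and the difference from DP as an interaction over 12 libraries. SE was computed as log2 fold change over the square root of F. The fits were tested on simulated data.

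Library differences used log2(CPM + 1). Transcript length and GC come from the longest GENCODE M21 transcript (99.8% of tested genes). DP-stage content is the mean log2 CPM of 17 genes. Other settings tried were limma 3.58.1 voom with quality weights, DESeq2 1.42.0, size factors from DESeq2, other filters, the 12 libraries of the table, covariates, each library left out and the animal as a block. CKO 14 and CKO 17 left out together, offsets for length and GC, and other scalings of CPM were added after the data had been seen.

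CD4 SP and DP libraries are paired by animal, per the labels. Across genes, deviations from the group means of the same animal correlated at 0.204 to 0.352 in WT, 0.089 in CKO 14, 0.243 in CKO 17 and -0.239 in CKO 23. The CD4 SP library of CKO 14 correlated at 0.239 with the DP library of CKO 23, and that of CKO 23 at 0.170 with the DP library of CKO 17, while Ddx3y followed the labels. Percentages of the same animal's DP library rest on this pairing. Named genes were Prmt5, Rag1, Dntt, Cd8a, Cd4, Ccr7 and Klf2, 10 genes in each direction with the smallest p, no overlap and at least 5 CPM in the higher genotype, genes called by DESeq2, the smallest p of each list, and 6 genes per side of CKO 14 and CKO 17 at 50 CPM or more. Unnamed gene models and receptor segments were left out; a few genes this rule selects are left unreported here. Klra9, Klrc2, Klrd1, Klrg1, Cenpe, Gzma, Prf1, Mki67, Mbnl1 and further members of lists whose genotypes did not overlap were named after their values were seen. The comparison, the members and the lists were chosen with earlier results of these data known.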

Additional observations from a re-analysis of the deposited data

Results flagged for a closer look

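For 2 of the interaction's genes the CKO libraries lay on opposite sides of WT in both populations. Ppa1, a pyrophosphatase, was above WT in all 3 CKO libraries of CD4 SP, with a log2 fold change of 0.59, and below WT in all 3 of DP, at -0.47. The difference was 1.04 ± 0.26, with an unadjusted p of 0.00181 and an adjusted p of 0.983 by edgeR's interaction term. Mettl6, a transfer RNA methyltransferase, was below WT in all 3 CKO libraries of CD4 SP, at -0.64, and above WT in all 3 of DP, at 0.15. Its difference was -0.82 ± 0.22, with an unadjusted p of 0.00384 and an adjusted p of 0.983 by the same test.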

How the results depend on the processing

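EdgeR and limma called 0 genes higher and 0 lower for CKO against WT under every alternative run. DESeq2 called 1 lower (Gzmb). For the difference from DP, edgeR called 1 gene lower (Wisp3) without CKO 23 and 0 otherwise, 0 to 1 over the left-out libraries. A replicate block for the animal left 0 genes higher, 0 genes lower and 166 genes (263 without the block) at an unadjusted p under 0.05. No block was possible for CKO against WT because the genotypes share no animal. Genes at an unadjusted p under 0.05 numbered 69 to 1417 over the left-out libraries (lowest without WT 15, highest without CKO 14), 927 with limma voom and quality weights, 1088 with 12 libraries in the fit and 483 with length and GC offsets.

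Gzmb had a log2 fold change of -6.36 to -4.22 over the alternatives in which it was tested (not at 5 CPM in 3 libraries), with adjusted p of 0.0502 to 1 by edgeR and limma. Rag1, Dntt, Cd8a, Bmf, Cd4 and Mbnl1 turned sign. Rag1 was 0.52 with DP-stage content as a covariate, -1.28 to 0.36 over the left-out libraries (0.19 without WT 24, 0.36 without CKO 17) and 0.60 with length and GC offsets, against -0.21. Dntt was -1.35 with voom weights, -0.31 with sex as a covariate, -1.24 to 0.95 over the left-out libraries (-1.24 without CKO 14) and -0.39 without CKO 14 and CKO 17, against 0.40. Cd8a was 0.41 with the covariate and -1.36 to 0.40 over the left-out libraries (0.40 without CKO 17), against -0.17. Bmf was -1.29 with voom weights, -0.46 with sex, -1.02 to 0.68 over the left-out libraries (-1.02 without CKO 14) and -0.15 without both, against 0.14. Cd4 was -0.023 to 0.39 over the left-out libraries (-0.023 without CKO 14) and -0.031 without both, against 0.26, and Mbnl1 was -0.018 with the covariate, against 0.51. The median of the cytotoxic and effector list was -0.70 to -0.36 over the left-out libraries and 0.23 at 5 CPM in 3 libraries, where 4 genes were left, against -0.55. The cause was not tested. Sex was read from Ddx3y. With 1 CKO library left, its spread is taken from WT.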
